A study of Mus musculus with 14 samples.

Results

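Among the CpG sites that the authors listed as differing in methylation between mammary tumours of the offspring of genistein-fed and control-fed dams, 1246 of 4327 lay in intergenic DNA more than 20 kb from the nearest annotated gene. They were taken from the authors' own annotation, as the intergenic sites whose smaller distance to a flanking gene exceeded 20000 bases. That rule used no levels, though the list itself was built on them and the set was chosen with earlier results known. The maternal LT-GE group held 4 RRBS libraries of mammary tumours from FVB mice carrying the SV40 Tag transgene, whose dams ate 250 mg/kg genistein (GE, a soy isoflavone) from 4 weeks of age until weaning. The control group, 3 libraries, came from mice of the same strain, transgene and age whose dams ate control diet. All offspring ate control diet and were about 25 weeks old. RRBS, reduced representation bisulfite sequencing, reads the methylation of single CpGs in DNA fragments near restriction sites, and a level is the percentage of reads that were methylated. The transgene is present in both groups, so the comparison is between tumours of one transgenic model. The labels do not say whether the tumours of a group came from separate litters, so the p-values measure the spread between these libraries only. In bulk tumours, a different level within a cell type cannot be told apart from a different mixture of cell types.

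DNA methylation in mammals sits mostly on CpG pairs and is copied at cell division by the maintenance enzyme DNMT1. DNA far from genes is usually methylated, apart from active enhancers, which carry lower levels, and tumours often lose methylation over gene-poor stretches of the genome. Such DNA holds enhancers, noncoding transcripts and repeats, and a flanking gene is a landmark rather than a known target.

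Sequence was available for the few distant sites that fell in a RefSeq promoter window (250 bases before to 50 after a gene's start, GRCm38.p6, the same primary coordinates as the files' mm10). These 6 sites, all in windows of noncoding genes that the authors' annotation did not use, are shown to give the sequence context that the assay reads. The capitals mark the measured CpG (CG) and the nearest CCGG, the sequence cut by MspI, the enzyme most RRBS protocols use. The enzyme used here is not given in the sources used here.
Gm35131: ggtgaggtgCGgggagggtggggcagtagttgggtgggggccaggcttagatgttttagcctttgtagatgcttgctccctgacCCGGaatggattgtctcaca
Gm46162: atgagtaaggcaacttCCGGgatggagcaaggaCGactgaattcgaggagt
Gm28321: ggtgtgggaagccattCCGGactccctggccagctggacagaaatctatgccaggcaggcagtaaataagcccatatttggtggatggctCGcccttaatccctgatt
Gm46560: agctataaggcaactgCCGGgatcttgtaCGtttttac
Gm32860: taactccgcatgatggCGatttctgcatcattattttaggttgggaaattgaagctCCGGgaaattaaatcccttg
Gm40283: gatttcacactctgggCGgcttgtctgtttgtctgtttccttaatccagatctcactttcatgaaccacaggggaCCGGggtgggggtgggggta
All 6 listed positions fell on a CpG in the RefSeq sequence, and every CCGG shown lay 13 to 75 bases from its CpG. CCGG, which reads the same on both strands, was present in all 6 windows and in 52.8% of the 32851 RefSeq promoter windows. The stretches printed are chr11:31727225-31727328 (minus strand), chr1:151250668-151250718 (minus strand), chr1:50812252-50812359, chr16:31508342-31508379, chr14:86299693-86299768 and chr5:35413115-35413209 (plus strand), in GRCm38.p6.

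At the CpG of the Gm35131 window, 241 bases before the start, the level was 14.3, 10.8, 16.3 and 39.1% in maternal LT-GE libraries 1 to 4, against 72.7, 83.3 and 56.8% in control libraries 1 to 3. The groups did not overlap there, the difference was -50.8 percentage points (adjusted p = 0.111, by a quasi-binomial model of methylated and unmethylated reads per site with a term for the spread between tumours), and the site sits between Bod1, a regulator of chromosome alignment, and a noncoding gene. A two-sided exact permutation test of the library levels, used below for single sites, gave p = 0.0286 here, the smallest that 4 and 3 libraries allow. The Gm46162 CpG, 145 bases before the start, read 63.5, 51.1, 47.1 and 21.2% in the LT-GE libraries, against 76.8, 83.7 and 67.3% in the controls, again without overlap and -30.2 points apart (adjusted p = 0.13). At the other 4 windows the groups overlapped. Gm28321, between C230029F24Rik and Tmeff2, read 24.1, 24.1, 69.6 and 23.1% in the LT-GE libraries, against 84.6, 36.4 and 100% in the controls. Gm46560, at 41 bases after the start, read 7.14, 0, 32.3 and 16.7% in the LT-GE libraries, against 59.6, 42.5 and 18.4% in the controls. These sites were lower in maternal LT-GE means, whereas Gm32860 was higher, with 100, 52.8, 28.6 and 100% in the LT-GE libraries, against 0, 23.1 and 58.8% in the controls, and so was Gm40283, through library 1, with 96.7, 16.7, 13.0 and 0% in the LT-GE libraries, against 12.2, 0 and 18.2% in the controls.

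The authors' list was itself built on this contrast. Its sites have pooled differences of 25.0 points or more, no library under 10 reads and q-values reaching 0.00959 at the highest, so the size of a difference at a listed site is a description. The quasi-binomial test is lenient for the same reason, and its Benjamini-Hochberg adjustment ran over all 4327 listed sites. Of the distant sites, 656 were lower and 590 higher in maternal LT-GE tumours, 52.6% lower (exact 95% interval 49.8 to 55.5%, counting error only, and neighbouring CpGs are not independent). Among intergenic sites within 20 kb of a gene 340 of 784 were lower, 43.4%, and over the whole list 46.9% were. In the quasi-binomial test, 2 distant sites passed an adjusted p of 0.05, where the background over all listed sites was 0.0462%, since those 2 were the only such sites of the list. At an unadjusted p under 0.05 there were 367 distant sites, 29.5% against a background of 31.6%, and the share was thus close to that of the list. Of these, 163 (13.1%) were higher, against 17.1% of all listed sites, and 204 (16.4%) were lower, against 14.5%. The 4 maternal LT-GE libraries lay entirely to one side of the 3 control libraries at 337 distant sites, 27.0% against 27.8% for the list. Of these, 156 were above the controls (background 15.4%) and 181 below them (background 12.3%).

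A pooled difference of this size did not require that every tumour took part in it. At the 656 lower sites, 4 maternal LT-GE libraries lay below the whole control range at 181 sites, 3 did at 254, 2 at 157, 1 at 28 and none at 36. At the 590 higher sites, 4 libraries lay above the control range at 156 sites, 3 at 213, 2 at 102, 1 at 49 and none at 70. The split was close to this over all listed sites. All 4 libraries lay beyond the control range at 26.3% of lower sites (27.6% of distant ones) and 29.1% of higher sites (26.4% of distant ones). None did at 7.73% of lower sites (5.49% of distant ones) and 10.5% of higher sites (11.9% of distant ones). The median absolute difference of group means was 31.5 points. The spread inside a group was as wide: the 4 maternal LT-GE libraries spanned 48.1 points at a site on average (39.9 points over sets of 3 of them, to match the controls), and the 3 control libraries 37.2 points. Across the distant sites, libraries of the maternal LT-GE group correlated with each other at Pearson's r of 0.43 to 0.51, control libraries at 0.40 to 0.60, and libraries of different groups at -0.06 to 0.11. These values are descriptive, since the sites were listed for a difference between the groups.

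The libraries themselves differed in how they used the scale. Levels of at most 10% were most frequent in maternal LT-GE libraries 2 (217 sites) and 1 (202) and control library 2 (224), and least frequent in maternal LT-GE library 3 (84) and control library 1 (70). Of the 1085 distant sites with a single lowest library, that library was maternal LT-GE 1, 2, 3 and 4 at 201, 213, 63 and 101 sites, and control 1, 2 and 3 at 97, 283 and 127 sites. Levels of at least 90% were most frequent in maternal LT-GE library 4 (351 sites), which was also the shallowest, with a median of 20 reads per site against 31 to 43 in the other 6. A 50% level read at 20 reads has an exact 95% interval of 27.2 to 72.8%, and at 40 reads of 33.8 to 66.2%, counting error only. A level of 0% at 20 reads allows up to 15%. The mean level over the distant sites was 50.9, 47.9, 60.6 and 60.0% in maternal LT-GE libraries 1 to 4, against 58.4, 51.3 and 60.4% in control libraries 1 to 3. The group means, 54.9% ± 6.42 in maternal LT-GE tumours (SD, n = 4) and 56.7% ± 4.80 in control tumours (SD, n = 3), differed by less than either SD.

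**Figure D1:**
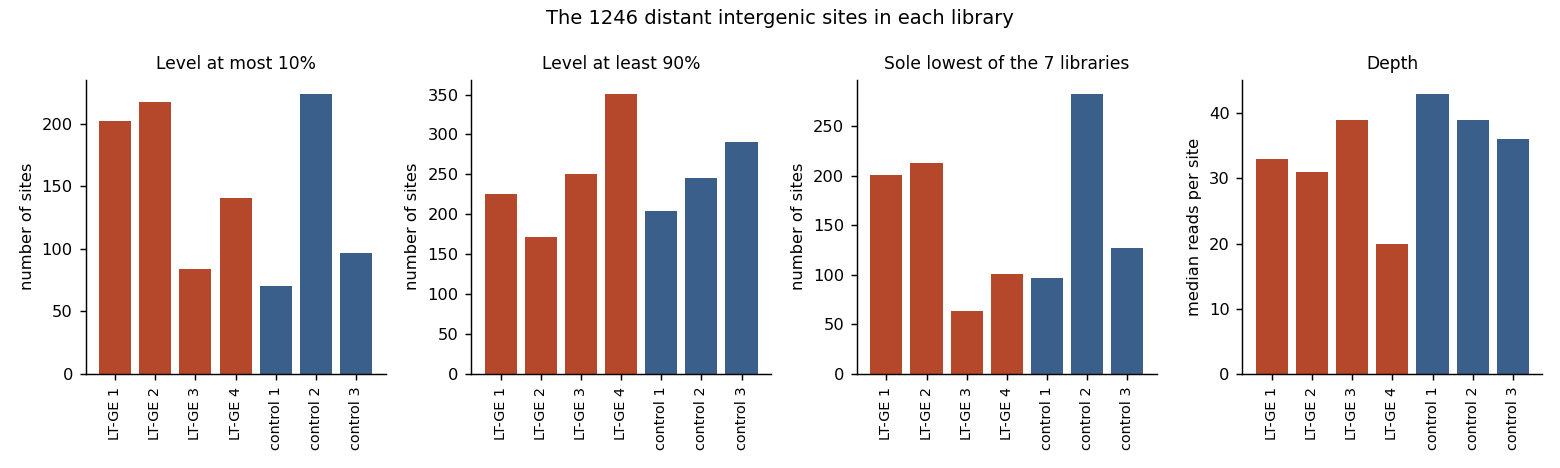
Number of the 1246 distant sites with a level of at most 10%, with a level of at least 90%, and with that library as the sole lowest of the 7, and the median reads per site, in each maternal LT-GE library (red) and control library (blue). Low levels were most frequent in LT-GE libraries 1 and 2 and control library 2, and LT-GE library 4, with a median of 20 reads, held the most levels of at least 90%.

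The share of lower sites was larger in each successive bin of distance from the nearest gene. It was 42.7% of 262 sites up to 5 kb from a gene, 43.7% of 522 sites at 5 to 20 kb, 48.4% of 450 at 20 to 50 kb, 51.1% of 360 at 50 to 100 kb, 57.9% of 202 at 100 to 200 kb, 58.1% of 172 at 200 to 500 kb, and 59.7% of 62 sites over 500 kb away. The exact 95% interval ran from 39.4 to 48.1% at 5 to 20 kb and from 50.8 to 64.8% at 100 to 200 kb. These intervals hold counting error only, as all sites come from the same 7 libraries and neighbouring CpGs are not independent. Leaving out any one library moved no bin by more than 2 points, which the listing largely fixed in advance. Every site was listed for a pooled difference of 25.0 points or more, so its sign rarely changes without a library. The mean level of the maternal LT-GE tumours over the sites stayed between 53.9 and 56.8% across these bins. The control mean was 48.7% up to 5 kb, 52.5, 53.3, 56.1, 59.7 and 61.1% in the following bins and 62.8% over 500 kb. Through the same listing, the gap between the group means in a bin largely follows its share of lower sites. It is not a separate result. Of the maternal LT-GE libraries, 2 and 3 were higher over 500 kb than within 5 kb of a gene (53.2 and 65.3%, against 45.1 and 54.2%), and 1 and 4 were not (52.2 and 56.0%, against 54.0 and 62.2%). Every control library was higher there (65.2, 53.4 and 69.7%, against 48.6, 43.4 and 54.1%). The share with an unadjusted quasi-binomial p under 0.05 was 37.0% of sites within 5 kb, 33.1% of those at 50 to 100 kb, 22.7% of those at 200 to 500 kb and 27.4% of those over 500 kb. With at least 20 reads in every library the share of lower sites was 39.5% of 243 sites up to 20 kb, 46.2% of 251 at 20 to 100 kb and 52.4% of 145 over 100 kb, against 43.4, 49.6 and 58.3% without that minimum. With sites within 1000 bases merged, the share was 42.6% up to 20 kb, 49.2% at 20 to 100 kb and 55.6% over 100 kb. No test was run on this gradient.

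**Figure D2:**
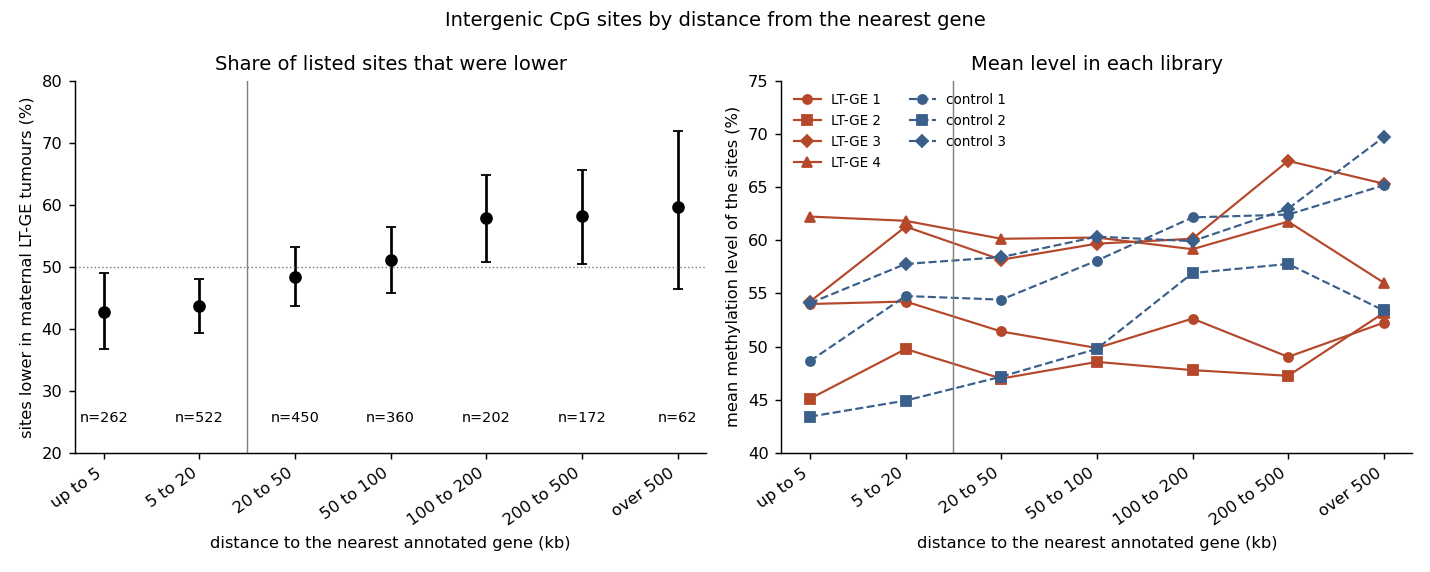
Left, percentage of listed intergenic sites that were lower in maternal LT-GE tumours by distance to the nearest gene, with exact 95% binomial intervals (bars, counting error only) and the number of sites. Right, mean methylation level of the same sites in each library (maternal LT-GE red solid, control blue dashed). The vertical line marks 20 kb; the share of lower sites was 42.7% within 5 kb and 59.7% over 500 kb, and LT-GE libraries 2 and 3 end higher than they start and LT-GE libraries 1 and 4 lower, while all 3 control libraries end higher.

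By chromosome, the distant sites divided unevenly. On the X, 37 of 56 were lower in maternal LT-GE tumours. Chromosomes 16, 5, 7 and 19 were among those that also held more lower than higher sites (39 of 58, 63 of 104, 31 of 51 and 14 of 18). On chromosome 14 only 14 of 42 were lower and on chromosome 2 only 23 of 64. Of the listed sites nearer to or inside genes, 72 of 102 on the X and 62 of 122 on chromosome 16 were lower. For chromosomes 5, 19, 14 and 2 these counts were 115 of 295, 33 of 70, 36 of 102 and 65 of 164. Read coverage relative to the autosomal median was also compared. The difference in log2 relative coverage, maternal LT-GE minus control, was 0.22 on the X, 0.17 on chromosome 16, 0.12 on chromosome 5, -0.33 on chromosome 14 and -0.25 on chromosome 2. It was 0.35 on chromosome 9, where 39 of 77 sites were lower, 0.07 on chromosome 19 and -0.12 on chromosome 7, so coverage and share did not go together on every chromosome. Its part in the shares was not tested.

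Higher levels in maternal LT-GE tumours were clearest at 8 sites, those with the lowest quasi-binomial p in that direction. The first lies on chromosome 6 (mm10 chr6:98480109), 137 kb from Gm765 and 445 kb from Foxp1, a forkhead transcription factor. All 4 maternal LT-GE libraries read 100% there, against 55, 69.8 and 56.2% in control libraries 1 to 3, over 10 to 93 reads (adjusted p = 0.103). No unmethylated read was seen in any maternal LT-GE tumour, and the highest control stood at 69.8%. The second, chr5:150186295 between Rxfp2, a receptor of the relaxin family, and Fry, a microtubule-binding protein, read 90.6, 89.5, 97.4 and 92.5% in the LT-GE libraries, against 37.0, 46.5 and 53.8% in the controls. The difference was 46.7 points (adjusted p = 0.103), and the newer RefSeq annotation places the site inside the span of Fry. Near Gria1, which encodes a subunit of AMPA glutamate receptors, chr11:56988954 read 95.8, 90.6, 90.6 and 91.3% in the LT-GE libraries, against 63.8, 55.9 and 69.5% in the controls. Here the maternal LT-GE tumours were almost fully methylated and the control tumours partly.

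Between 4930452A19Rik and Qk, which encodes the RNA-binding protein quaking, chr17:9979038 read 87.5, 100, 91.7 and 100% in the LT-GE libraries, against 31.3, 23.5 and 50% in the controls. The site between Nectin1, a cell adhesion molecule, and Thy1, a surface protein of T cells and fibroblasts, read 77.8, 100, 81.6 and 92.9% in the LT-GE libraries, against 39.0, 26.7 and 39.2% in the controls (chr9:43943326). At chr3:35697299, between Gm6639 and Atp11b, a subunit of phospholipid flippases, the levels were 51.9, 39.1, 65.6 and 76.7% in the LT-GE libraries, against 10.9, 2.86 and 8.33% in the controls, with the control tumours nearly unmethylated. The remaining pair, between Fam205c and Phf24 (chr4:42895227) and between Gm11426 and Cct6b, a chaperonin subunit (chr11:82672725), differed by 53.7 and 45.8 points. At all 8 sites the groups did not overlap, and the quasi-binomial adjusted p was 0.103 to 0.105.

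Lower levels in maternal LT-GE tumours had the only sites past the adjusted threshold. Both lie 10 bases apart on chromosome 11 (chr11:86868535 and chr11:86868545), 60.9 kb from Dhx40, a DEAH-box RNA helicase, and 67.9 kb from Ypel2, a member of the Yippee-like family, by the authors' annotation. The first read 9.35, 2.27, 6.98 and 7.14% in maternal LT-GE libraries 1 to 4, against 89.3, 87.8 and 81.5% in control libraries 1 to 3, over 44 to 107 reads. Its mean was 6.43% ± 2.98 in maternal LT-GE tumours (SD, n = 4), against 86.2% ± 4.16 in control tumours (SD, n = 3), a difference of -79.8 points (quasi-binomial adjusted p = 0.0239). The second read 19.8, 31.8, 22.1 and 33.3% in the LT-GE libraries, against 93.2, 90.2 and 90.1% in the controls (-64.4 points, adjusted p = 0.0444). No maternal LT-GE tumour exceeded 33.3% at either, and all control tumours were at 81.5% or more. Another listed CpG nearby, chr11:86868513, read 19.6, 15.9, 20 and 22.0% in the LT-GE libraries, against 74.8, 71.6 and 100% in the controls (-62.7 points, adjusted p = 0.103). Neighbouring CpGs on the same reads are not independent, so the sites are 1 locus. The newer RefSeq annotation of GRCm38.p6, unlike that of the authors, places all of them inside the spans of the lncRNA genes Gm33742 and Gm38942, near one end of the first. At the pair past the threshold, the adjusted p without any one library was 0.108 to 0.181, and with limma on logit levels it was 0.0843 and 0.0975, while the difference stayed within -82.1 to -62.1 points in all alternatives tried.

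The next lower sites varied in form. Between Hunk, a kinase first found in mouse mammary tumours, and Mis18a, which helps place the centromeric histone CENP-A, chr16:90628944 read 9.46, 0, 5.26 and 20% in the LT-GE libraries, against 71.7, 86.7 and 91.8% in the controls (adjusted p = 0.103), as at the Dhx40 and Ypel2 pair. At chr16:61190516, between the ephrin receptor gene Epha6 and Nsun3, a mitochondrial tRNA methyltransferase, the LT-GE libraries read 40.7, 51.7, 52.9 and 58.3% and all 3 controls 100%. The site 34.1 kb from Gata3, the transcription factor of luminal mammary cells, read 70.7, 63.2, 83.0 and 46.2% in the LT-GE libraries and again 100% in all 3 controls (chr2:9822966, adjusted p = 0.103). At chr1:158175524, between Sec16b and Brinp2, maternal LT-GE libraries read 9.09, 0, 0 and 0% and the control tumours lay close together at 47.1, 45.9 and 41.9%. The 0% levels there rest on few reads and allow up to 10.3 to 18.8%.

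**Figure D3:**
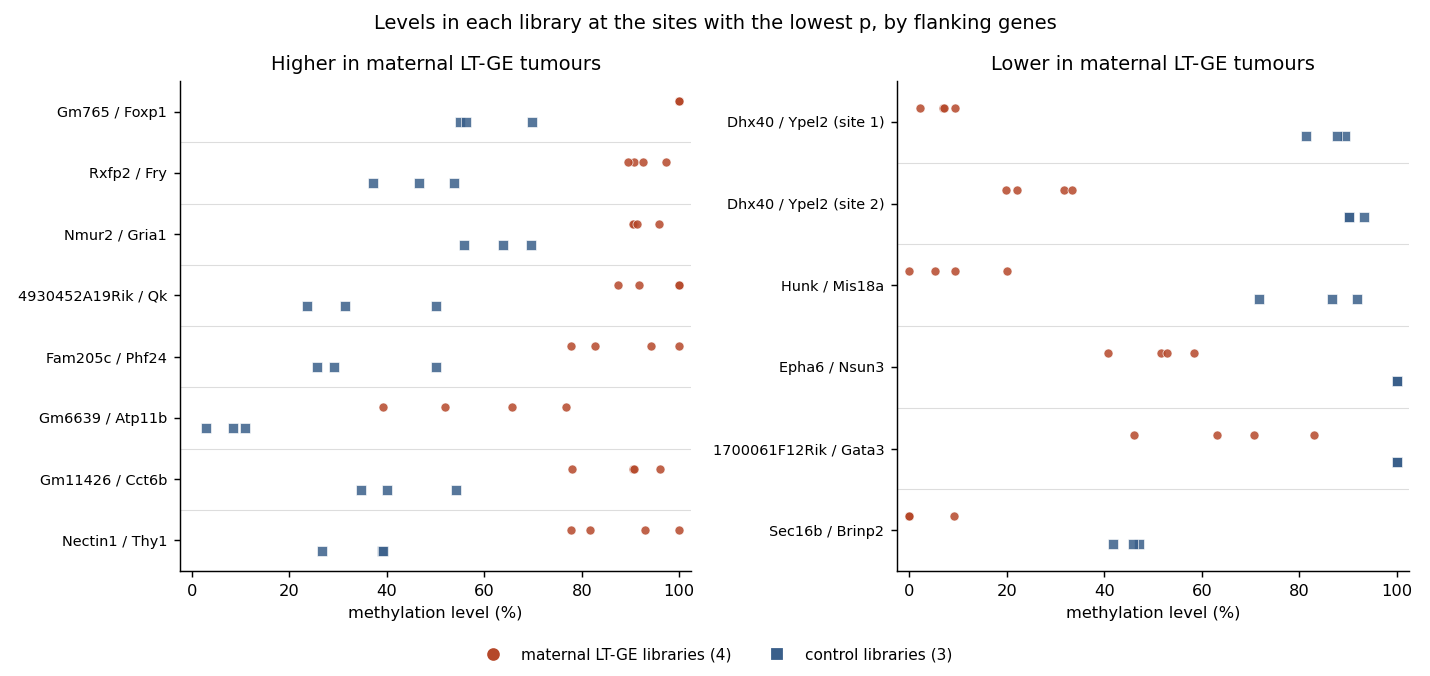
Methylation level in each library at the 8 higher and 6 of the 8 lower distant sites with the lowest p, labelled by their flanking genes; red circles are the 4 maternal LT-GE libraries and blue squares the 3 control libraries, drawn below them. At every site shown the 2 sets of points are apart, with wide gaps at the first Dhx40 / Ypel2 site and at Hunk / Mis18a.

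Sites that lie close together mostly went the same way. The 1246 sites formed 1048 clusters (sites within 1000 bases of the next), of which 898 were single sites and 150 held 348 sites. Of the 150, 63 were higher at every site, 73 lower at every site and 14 mixed. Neighbouring pairs within 10 bases had the same direction in 73 of 74 cases (98.6%), at 10 to 100 bases in 94.5% of 146, at 100 to 1000 bases in 71.4% of 42 and at 1 to 10 kb in 51.4% of 35. Among the other listed sites these shares were 99.5, 97.8, 91.1 and 67.5%. Pairs within a read length can share reads and are not independent.

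Between Gm30173 and Gm2447 on chromosome 3, 5 sites over 148 bases read 0% in all 4 maternal LT-GE libraries in 1 case and in 3 of them in the other 4. At chr3:52645272 the levels were 0, 0, 5.45 and 0% in the LT-GE libraries, against 67.9, 22.6 and 76.5% in the controls. The 5 differences lay between -54.3 and -40.6 points, and at chr3:52645379 the 0% levels allow up to 15.0 to 27.3%. Control library 2 was the lowest control at all 5 sites, and the groups overlapped at chr3:52645399 and chr3:52645419.

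Between Nhlrc2 and Adrb1, the beta-1 adrenergic receptor gene, 4 sites within 30 bases were lower, with the widest gap at chr19:56652704, which read 0, 0, 15.8 and 0% in the LT-GE libraries, against 92.3, 62.5 and 75% in the controls. At the last of them maternal LT-GE library 4 stood at 69.2%, inside the control range, and at the first, chr19:56652692, all 4 maternal LT-GE libraries and control library 3 read 0%. The largest cluster, 6 sites between Plb1 and Ppp1cb, a catalytic subunit of protein phosphatase 1, was lower in mean at every site, but the maternal LT-GE libraries were far apart. At chr5:32424189 the levels were 96.6, 11.9, 53.0 and 86.8% in the LT-GE libraries, against 92.2, 96.2 and 95.3% in the controls, with library 1 above the controls and library 2 far below them, and an exact permutation p = 0.257. The groups were apart at 2 of the 6, chr5:32424161 (exact permutation p = 0.0857) and the sixth site, chr5:32424583, which read 41.4, 16.9, 23.2 and 33.3% in the LT-GE libraries, against 63.5, 52.9 and 78.8% in the controls (adjusted p = 0.127). In the cluster between B130024G19Rik and 4930441H08Rik, 559 kb from the nearest gene, all 4 sites were lower in mean, and the groups were apart at chr7:71351107 (36.8, 34.2, 47.7 and 73.8% in the LT-GE libraries, against 100, 87.5 and 92.4% in the controls) and overlapped at the other 3.

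A mixed cluster, between Vrk1, a nuclear kinase, and 1700121N20Rik, held 2 higher and 2 lower sites. At chr12:106369542 the levels were 36, 74.4, 74.3 and 73.9% in the LT-GE libraries, against 0, 0 and 52.2% in the controls, and at chr12:106369650 they were 30.4, 0, 26.7 and 0% in the LT-GE libraries, against 54.3, 23.8 and 54.4% in the controls. Neither difference passed (exact permutation p = 0.0857 and 0.143). The mixed clusters between 9230009I02Rik and Platr20 and between Aldh1a2, a retinaldehyde dehydrogenase, and Polr2m each held 3 sites, with 1 higher in the first and 2 higher in the second. The lower site of the second, chr9:71342226, differed by -18.5 points and by 2.64 points without control library 3.

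**Figure D4:**
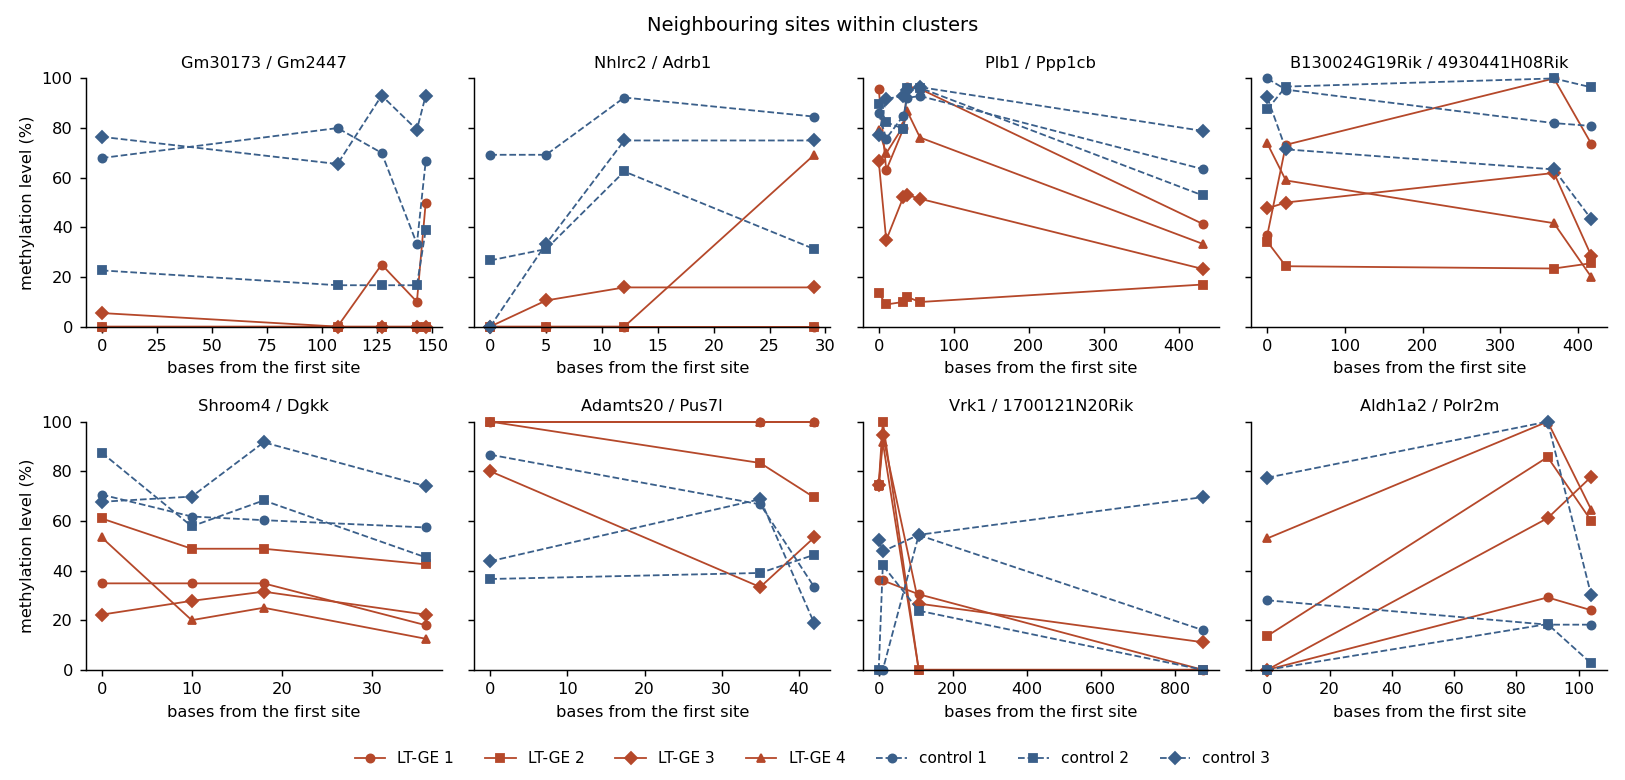
Methylation level against distance from the first listed site in 8 clusters of distant sites, titled by their flanking genes, with one line per library (red solid, maternal LT-GE; blue dashed, control). The lines of the 2 groups are apart at Shroom4 / Dgkk, mix at Plb1 / Ppp1cb, where LT-GE library 2 lies lowest at every site, and cross at Vrk1 / 1700121N20Rik.

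The authors' deposited table of differentially methylated regions gave a second view, with each group's libraries combined by the authors into 1 mean and therefore no spread. Of its 139 regions, 23 lay over 20 kb from a gene by the same rule, with a median of 5 CpGs and 84 bases. By the authors' deposited table, maternal LT-GE tumours were lower in 16 of the 23 and higher in 7, against 92 of 139 lower overall. Only 3 of the 23 contained sites of the site list. In the authors' deposited table the region between Gm30173 and Gm2447 had 5.75% in the maternal LT-GE group, against 56.3% in the control group, and the one between Actrt2 and Ttc34, higher in maternal LT-GE tumours, 67.1% against 26.5%. At the listed sites between Actrt2 and Ttc34, the maternal LT-GE libraries read 55.6 to 100%. The control tumours were split there, with control library 2 at 0%, control library 3 at 88.9 to 100% and control library 1 between them.

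Regions without listed sites are given as examples, picked after their values were seen. The authors' deposited table had lower means in the maternal LT-GE group between Runx1, a transcription factor of blood and mammary cells at 324 kb, and 1810053B23Rik at 193 kb (45.7% against 92.7%, maternal LT-GE against control), between Tmem45b and the homeobox gene Barx2 at 163 kb (7.26% against 52.6%), and 137 kb from Efnb1, an ephrin ligand on the X (21.3% against 79.6%). Higher means in the authors' deposited table stood between Zfp706 and Grhl2, a regulator of epithelial identity at 123 kb (92.8% against 35.3%), 254 kb from Sox5, with Sox5os3 nearer at 209 kb (81.5% against 34.8%) and 356 kb from En1, a homeobox gene, with Celrr nearer at 123 kb (61.9% against 19.1%). The region with the most CpGs, 28, lay 90.7 kb from Nrg1, a ligand of the ErbB receptors, and was the only one of the 23 in a CpG island, with 34.3% against 5.86% in the authors' deposited table. CpG islands are usually unmethylated in normal tissue.

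**Figure D5:**
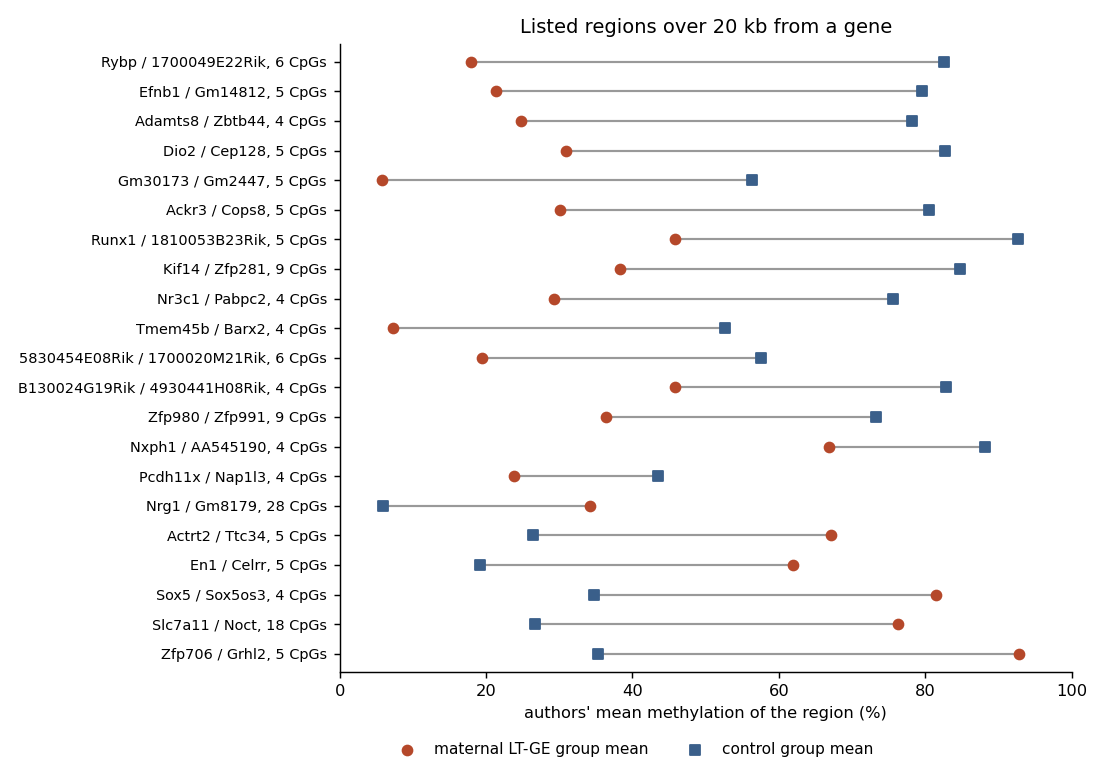
The authors' mean methylation of 21 of the 23 listed regions over 20 kb from a gene, ordered by difference, in the maternal LT-GE group (red circles) and the control group (blue squares), labelled by flanking genes and number of CpGs. The upper 15 regions were lower in the maternal LT-GE group, led by Rybp / 1700049E22Rik, and the lower 6 were higher.

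Genes flanking the distant sites were grouped by 5 lists. Apart from the breast and mammary cancer genes, the lists were matched by gene symbol alone and can hold genes of other kinds. The list of developmental transcription factors thus includes noncoding transcripts named after them, such as Sox1ot, Sox2ot and Dlx6os1. Genes of that list flanked 98 distant sites (7.87%), 49 lower and 49 higher. Of the 98, 33 (33.7%) had a quasi-binomial p under 0.05, near the 31.6% of all listed sites. Near sites had such a flank in 7.02% of cases. Adhesion and guidance genes (cadherins, protocadherins, ephrins and the like) flanked 78 distant sites (6.26%, against 2.93% of near sites), 45 lower and 33 higher, and 24 (30.8%) with a p under 0.05. Noncoding or predicted genes flanked 535 (42.9%, against 28.8%), and olfactory, vomeronasal and taste receptors 12 (0.963%, against 2.17%). The median difference was 0.49 points for sites beside the developmental genes and -23.9 points beside the adhesion genes, against -17.8 points for all distant sites. A median of differences that are all large in one direction or the other mainly follows the count of lower sites.

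Breast and mammary cancer genes flanked 14 distant sites, at 6 genes, 10 lower and 4 higher. A p under 0.05 was reached at 6 of the 14 (42.9%, against 31.6% of all listed sites), all lower. The list flanked 5 near sites, 1 lower and 4 higher, of which 2 had a p under 0.05, both higher. Beside the Gata3 site above, a second one lay 424 kb from Gata3, with 1700061F12Rik nearer at 236 kb (chr2:9433543). It read 23.8, 21.5, 20.2 and 28.4% in the LT-GE libraries, against 54.3, 74.1 and 88.1% in the controls (quasi-binomial adjusted p = 0.111). Between Tprg and Trp63, which encodes p63, the factor of basal epithelial cells, chr16:25466091 read 0% in all 4 maternal LT-GE libraries, which allows up to 4.48 to 10.7%, against 24.7, 50 and 24.4% in the controls (adjusted p = 0.103). The site 106 kb from Kit, a receptor tyrosine kinase (chr5:75469092), read 48.6, 0, 89.5 and 17.4% in the LT-GE libraries, against 100, 100 and 100% in the controls. The one 77.2 kb from Nrg1 (chr8:31740804) read 41.0, 17.6, 60 and 70% in the LT-GE libraries, against 100, 74.4 and 100% in the controls, and the one 28.2 kb from Bmp4, a secreted growth factor (chr14:46418821), 0, 4, 20 and 16.7% in the LT-GE libraries, against 47.5, 28.3 and 85% in the controls. At these sites the groups did not overlap, though at Kit the maternal LT-GE libraries ranged from 0 to 89.5%. Neighbouring CpGs of that Kit site, chr5:75469059 and chr5:75469100, were lower in mean (-54.1 and -40.3 points), but their groups overlapped. Of the 4 higher sites, 2 lie by Bmp2 and 2 by Kit, and none had a p under 0.05.

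RNA was compared by the authors in tumours of the same groups, 4 maternal LT-GE and 3 control samples, and their table lists called genes only. The labels do not tie RNA and RRBS libraries of the same number to one tumour, and the header does not name which group is on top of the fold, so the signs below are as deposited. A flanking gene was called at 158 distant sites (12.7%, against 13.3% of near intergenic sites), 95 genes in all. Of the 95, 57 had a positive and 38 a negative fold. At the pairs of a site with a positive gene 52 were lower and 46 higher in methylation, and at those with a negative gene 39 were lower and 26 higher. The authors' own pairing table joined 34 of the distant sites with 24 called genes.

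The 10 flanking genes with the largest deposited folds were Gsc, Dgkk, Kcnb2, Pax3, Dlx6os1, Sall1, Adamts20, Tprg, Trp63 and Slc6a15. In the authors' deposited table Gsc, the homeobox gene goosecoid, had a log2 fold change of 8.82 (SE 1.87, adjusted p = 0.000151). A site lay 30.8 kb away, chr12:104440449, with Serpina3n nearer at 26.1 kb. It read 57.1, 0, 35.5 and 46.2% in the LT-GE libraries, against 0, 0 and 8.11% in the controls (exact permutation p = 0.143). In the authors' deposited table Pax3, a neural crest and muscle factor, had 6.15 (SE 1.07), Sall1, a zinc finger factor, 5.63 (SE 0.73), and Dlx6os1, a noncoding transcript of the Dlx5 and Dlx6 locus, 5.75 (SE 0.74). The Dlx6os1 site, chr6:6654611, lay 166 kb from that gene, with Sem1 nearer at 76.0 kb. It read 91.8, 84.8, 80 and 100% in the LT-GE libraries, against 59.3, 46.1 and 77.8% in the controls, and the groups did not overlap (quasi-binomial adjusted p = 0.143). Those of Pax3 and Sall1 overlapped, with differences of -29.2 and 24.6 points. The Pax3 site lay 438 kb from Pax3, with Epha4 nearer at 148 kb.

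For the neighbours Trp63 and Tprg on chromosome 16, the authors' deposited table gave a log2 fold of 4.73 (SE 0.71) for the first and 4.97 (SE 0.68) for the second. Besides the site at 0% described above, a pair of CpGs lay 98.6 kb from Trp63, and chr16:25585162 read 0, 6.60, 11.7 and 54% in the LT-GE libraries, against 66.2, 82.9 and 38.2% in the controls. Library 4 stood within the control range there (exact permutation p = 0.0857). Kcnb2, a potassium channel gene, had 6.39 (SE 0.83) in the authors' deposited table, with a site 217 kb away that overlapped and lay 177 kb from Trpa1. Slc6a15, an amino acid transporter gene, had -4.60 (SE 0.82) in the authors' deposited table, and chr10:103268714, 32.4 kb from Lrriq1 and 99.1 kb from Slc6a15, read 50, 17.9, 28.2 and 44.4% in the LT-GE libraries, against 66.0, 68.2 and 67.9% in the controls. All 4 maternal LT-GE libraries were below the controls, which lay within 3 points of each other (adjusted p = 0.111).

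The newer RefSeq annotation of GRCm38.p6 placed part of these sites much nearer to genes. It put 258 of the 1246 (20.7%) inside the span of a gene, 169 of them in a lncRNA gene and 76 in 43 protein-coding genes, and left 602 over 20 kb from any gene. Of the 76 sites, 40 were lower and 36 higher, and 29 (38.2%) had a p under 0.05, against 29.5% of all distant and 31.6% of all listed sites. Of the 602, 53.2% were lower and 164 (27.2%) had a p under 0.05. Among the sites described above, the one beside Thy1 lies inside the lncRNA gene Gm30373, that beside Phf24 inside Phf24, that between Hunk and Mis18a inside the lncRNA gene Gm36116 and that beside Brinp2 inside the lncRNA gene Gm39686. The second Gata3 site lies inside the lncRNA gene Gm13219 and the Dlx6os1 site inside the lncRNA gene Gm20618. Tenm3, a teneurin of neuronal adhesion, held 9 sites, 8 of them lower. Its site chr8:48947429 read 23.5, 28, 22.2 and 16.1% in the LT-GE libraries, against 56.5, 72.4 and 60% in the controls (adjusted p = 0.105). Tacc1, a coiled-coil protein of the centrosome and spindle, held 3, of which chr8:25255708 read 0, 4.55, 6.38 and 23.1% in the LT-GE libraries, against 69.6, 81.1 and 60.5% in the controls and chr8:25253962, in the same gene, went the other way with 100, 99.1, 75.8 and 87.0% in the LT-GE libraries, against 71.1, 51.9 and 66% in the controls. At chr14:63269534 inside Gata4, a cardiac and gut transcription factor, the LT-GE libraries read 27.5, 50, 20.8 and 30% and all controls 0% (adjusted p = 0.11). The libraries had 10 to 40 reads there, and a level of 0% allows up to 30% at 10 reads and 7.5% at 40. The groups overlapped at the other listed site in Gata4, chr14:63269546. It read 40, 50, 4.17 and 80% in the LT-GE libraries, against 9.52, 11.1 and 0% in the controls.

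Dgkk, a diacylglycerol kinase on the X that the authors placed 93.7 kb away, contained 4 sites near one end of its newer span. All 4 were lower in maternal LT-GE tumours without overlap, and chrX:6779787 read 34.8, 48.8, 27.8 and 20% in the LT-GE libraries, against 61.8, 57.8 and 69.8% in the controls (adjusted p = 0.122). Dgkk had a log2 fold change of 7.30 (SE 2.01, adjusted p = 0.00736) in the authors' deposited table. Adamts20, a secreted metalloprotease, contained 3 sites that the authors had placed 26.1 kb outside it. All 3 were higher in mean, chr15:94430478 read 100, 69.4, 53.3 and 100% in the LT-GE libraries, against 33.3, 46.3 and 18.8% in the controls (adjusted p = 0.155), and its deposited log2 fold, from the authors' deposited table, was -5.40 (SE 0.76). The third called gene with a site inside its newer span, Spata13, had -0.78 in the authors' deposited table, and its site chr14:60533679 read 100, 100, 72.4 and 100% in the LT-GE libraries, against 63.3, 9.09 and 56.2% in the controls (adjusted p = 0.165, with an unadjusted quasi-binomial p over 0.05). In all 3 genes the methylation difference and the deposited fold had opposite signs. They were picked out after their values were seen, and with the fold's numerator unnamed the direction of expression is not known from the table.

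On the X, the site with the lowest p was chrX:63690298, between Tslrn1, a noncoding gene, and Gm6760, more than 461 kb from either, and it read 10, 11.1, 3.23 and 0% in the LT-GE libraries, against 56.5, 42.9 and 70.9% in the controls (adjusted p = 0.103). It was low in every maternal LT-GE tumour and intermediate in every control. Between 5330434G04Rik and Cypt2, chrX:105426641 read 34.7, 17.8, 36.9 and 26.1% in the LT-GE libraries, against 64.4, 59.1 and 56.9% in the controls, over 88 to 202 reads. Between Esx1, a homeobox gene 304 kb away, and Il1rapl2, 146 kb away, all 4 maternal LT-GE libraries read 100% at chrX:137424439, and so did control library 2, while control 1 read 30.2% and control 3 was lower still.

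Of the 5 sites farthest from any gene in the authors' annotation, 1 had groups that did not overlap. At chr14:113167328, 1484 kb from Slitrk5, a synaptic adhesion gene, the levels were 78.2, 58.6, 85.5 and 82.2% in the LT-GE libraries, against 52.8, 19.8 and 82.1% in the controls (exact permutation p = 0.2). At chr2:100088785, with a gene on one side only, B230118H07Rik at 1472 kb, they were 41.1, 74.3, 80.6 and 84.6% in the LT-GE libraries, against 100, 87.0 and 97.4% in the controls, without overlap (adjusted p = 0.156). At the other 3, between Gm15501 and Tenm4 (chr7:94705058, which the newer RefSeq annotation places inside the lncRNA gene Gm32647), between Got2 and Gm15679, and between Diaph2 and Pcdh19, the groups overlapped. At the edge of the distance rule, the sites just over 20 kb lay 20.002 kb from Bcas1 (52.6% against 23.6%, maternal LT-GE against control mean) and 20.071 kb from Psmd7 (12.8% against 40.4%). Those just under it, 19.992 and 19.986 kb from D16Ertd519e, had 67.3% against 31.8% and 88.2% against 38.4%.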

How the data were processed

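Reads were processed by the authors. Per the submitters' processing notes Bismark, R 3.6.1, Trim Galore, DESeq, FastQC, HTSeq and STAR were used, with builds mm10 and GRCm38, and the role of each is not given in the sources used here. The deposited RRBS site table holds, for each library, read counts (all reads and methylated ones) and the percent methylated, and for each site the authors' q-value, p-value and difference in percentage points. Per the file headers, the region table gives each group's average level, made by the authors, as a fraction (given here in percent), and a CpG count. Per the file headers, the RNA table holds an averaged normalised signal, and a log2 fold change, its SE and its adjusted p-value. It also holds a further fold change and a false discovery rate, which were not used here.

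From the deposited counts, levels were computed per library and a quasi-binomial model (F test, dispersion of at least 1, group as the only term, 7 libraries) was run on all 4327 sites with Benjamini-Hochberg adjustment in Python 3.11.15 with scipy 1.17.1. Limma 3.58.1 in R 4.3.3 on logit levels was an alternative, with others given at the end. The model was also run on simulated reads with no selection of sites, so that check does not cover sites listed for this contrast. Single sites were also compared by a two-sided exact permutation test over 35 arrangements. At the distant sites the libraries held 34537 to 61287 reads (maternal LT-GE) and 59449 to 67489 reads (control). The labels do not say whether the replicate numbers pair the samples, and the main model did not use them. Same-numbered libraries correlated at 0.022, 0.009 and -0.032 in their deviations from group means over all 4327 sites. Over the distant sites these values were -0.00016, 0.020 and -0.043. Such values cannot show whether same-numbered libraries shared a litter or a batch. Libraries of a group shared the same counts at no more than 25 sites, so none was a repeat of another.

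Sites were named by rule: the 8 lowest p in each direction, the 5 largest differences without overlap, the 5 farthest from genes, the 5 largest clusters and 3 mixed ones, sites at the 20 kb edge, those beside the 10 largest deposited folds, those in listed regions, and the 5 lowest p on the X. Sites in promoter windows, in newer gene spans and beside breast cancer genes were added after values were seen. The set of sites, the gene lists and the tests were chosen with earlier results of these data known. Sequences and newer gene spans are from RefSeq (GRCm38.p6). Pairs of same-strand and antisense genes were not separated, and RNA levels per library were not used here. Some sites and regions that these rules pick are not reported here.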

Additional observations from a re-analysis of the deposited data

Results flagged for a closer look

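Within the 4 maternal LT-GE libraries, 1 library stood far from the other 3, by Dixon's test at its 95% level, in 16 of 89 sets of 4 values examined. Chance gives about 1 in 20 only for values that are not tied. Where the other 3 libraries all read 0% or all read 100%, Dixon's ratio is at its maximum for any gap. The flag was then fixed in advance, so the count of flagged sets cannot be set against that rate. Neighbouring CpGs also repeat each other, and values near 0% or 100% leave little room for spread. Several rest on few reads, such as 11 in library 1 at chr1:158175524 and 19 in library 3 at chr19:56652697. The 0% levels of the other maternal LT-GE libraries there allow up to 10.3 to 18.8% and 11.1 to 21.4%. The part of read sampling in the flagged gaps was not tested. Library 1 was the one apart at 8 sites. It read 95.8% beside Gria1 (chr11:56988954), 9.09% beside Brinp2 (chr1:158175524) and 73.7% in the B130024G19Rik cluster (chr7:71351524). It read 25%, 10% and 50% at 3 neighbouring sites between Gm30173 and Gm2447 (chr3:52645399, chr3:52645415 and chr3:52645419), where the other 3 libraries read 0%. It read 36% at a pair of sites beside Vrk1 (chr12:106369542 and chr12:106369553), where the others were at 73.9% or more.

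Library 3 was apart at 7 sites. It read 5.45% at chr3:52645272, 10.5% and 15.8% beside Adrb1 (chr19:56652697 and chr19:56652704) and 11.1% beside Vrk1 (chr12:106370417), where the other 3 libraries read 0%. It read 80% in Adamts20 (chr15:94430436) and 72.4% in Spata13 (chr14:60533679), where the others read 100%, and 69.6% in the Gm28321 window. Library 2 was apart once, with 92.6% between Actrt2 and Ttc34 (chr4:154710153). At these sites the SD of the maternal LT-GE group mostly carries that 1 library.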

How the results depend on the processing

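The sites are those that the authors had already selected, so no setting here tests CpGs outside the list, and depth limits the level of a single library, above all of maternal LT-GE library 4. With at least 20 reads in every library, 396 distant sites remained, of which 61 higher and 65 lower sites (126 in all) had a p under 0.05, 121 did not overlap and 48.5% were lower, while 7 of all 1230 listed sites passed the adjusted threshold. A chi-square reference for the F test gave 319 higher, 380 lower and 699 in all, and 1731 past the adjusted threshold. Pooled reads with no spread between tumours gave 590, 656 and 1246, and 4327. Limma passed 0 sites at the adjusted threshold, with 367 distant sites at an unadjusted p under 0.05. With the nearest gene over 50 kb away (796 sites) the counts were 102 higher, 127 lower and 229 in all, with 213 not overlapping. Over 20 kb from every gene of GRCm38.p6, an alternative chosen after seeing the data (602 sites), they were 76, 88 and 164, with 148 not overlapping. In both of these the smaller number of sites sets the fall, since the shares stayed at 26.8 to 28.8% and 24.6 to 27.2%.

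Leaving out 1 library at a time gave 0 sites at the adjusted threshold in every case, 103 to 176 higher and 143 to 204 lower distant sites, 269 to 339 in all, and 444 to 554 without overlap. With fewer libraries the groups separate more easily and the test has less power. These counts are therefore not directly comparable with those from all libraries. The lowest counts of higher sites came without maternal LT-GE library 3 or 4 (103 and 104) or control library 2 (106), and the 554 without control library 3. The difference in mean level, -1.84 points with all libraries, ran from -4.54 without control library 2 to 0.47 without maternal LT-GE library 2 when 1 library was left out. It was 0.024 without control library 3, -3.75 and -3.57 without maternal LT-GE library 3 or 4, 1.34 with at least 20 reads, -3.57 with the replicate block and -3.36 with the nearest gene over 50 kb away. A replicate block over the 6 libraries with shared numbers, which the labels do not describe as pairs, passed 0 sites at the adjusted threshold and gave 106 higher, 163 lower and 269 distant sites in all. The share of lower sites kept to 52.0 to 53.3% when a library, the X or the block was changed. For a left-out library, the listing by pooled difference largely fixed this in advance.

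At the 76 named sites, 721 of 860 values under the alternatives kept their direction and side of the threshold, 120 passed it newly (all but 1 with the chi-square or pooled reads), 18 lost it and 1 reversed, that at chr9:71342226, where leaving out 1 library gave -36.1 (without control library 2) to 2.64 points (without control library 3). Both Dhx40 and Ypel2 sites lost their call without any one library, with limma and with the block (adjusted p = 0.21). Fits without a library and with the block have less power.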
